A study of Mus musculus with 18 samples.

Results

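Long-term haematopoietic stem cells (LT-HSC) cultured for 2 or 4 days without induction of reprogramming factors were compared with uncultured LT-HSC. The members were the 3 LT-HSC libraries without induction, out of 18 libraries in the series, and within them the genes whose level differed from uncultured cells in the same direction at both days. The cultured libraries are titled 2N and 4N and are called the N cultures. All 3 came from C57BL/6 mice grown wholly from induced pluripotent stem cells ("all-iPS" mice), in whose genome Oct4 (Pou5f1), Sox2, Klf4 and c-Myc (Myc) had been inserted under doxycycline control. The uncultured cells therefore carry the same inducible factors as the N cultures. Each blood library was made from 25 hand-picked cells by oligo-dT priming and PCR, and each condition is 1 library. The doxycycline field of the N libraries reads "Yes", against their titles and the series design, which describes cultures without the drug as the control for culture itself, and the titles were followed. The short-term stem cell (ST-HSC) and the myeloid progenitor (MP) were sampled in the same 3 states. The sources used here do not give the medium, the sorting markers, or the sex and age of the mice.

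LT-HSC rebuild the whole blood system after transplantation and are mostly quiescent in the marrow. Outside the niche, cytokines in the medium drive them into division. Taking cells from tissue switches on immediate early genes within minutes, through kinase signalling that needs no new protein, and their transcripts are short-lived. Mouse LT-HSC are known by surface Kit, Sca-1 (Ly6a), CD150 (Slamf1) and EPCR (Procr), with little CD34, CD48 or Flt3, whereas Elane, Prtn3, Mpo and Ctsg encode the primary granule proteins of granulocyte progenitors.

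The labels were checked before any comparison. Sox2 was listed at 1.496 FPKM in 2N and 0 in 4N, against 1.81 in uncultured LT-HSC, and Pou5f1 and Nanog at 0 in all 3 libraries. The levels of Klf4 and Myc are given with their groups. Uncultured LT-HSC held the stem cell genes: Slamf1 stood at 34.6 FPKM, Procr at 215 and Ly6a at 367. Their Cd34 level was 16.1 FPKM and their Flt3 level 2.84. The same library also held Elane at 13554 FPKM, Prtn3 at 16683 and Mpo at 7525, levels nearer to uncultured MP (19235, 21209 and 13224) than to uncultured ST-HSC (44.7, 797 and 765). The 10 primary granule genes found summed to 2540 FPKM in 2N and 1997 in 4N, against 47060 in uncultured LT-HSC, with 4241 in uncultured ST-HSC. The library labelled uncultured LT-HSC thus carries both stem cell and granulocyte-progenitor transcripts, and stem cells with these transcripts cannot be told apart from a mixture of 25 cells. The late granule genes stood apart in a second library: the 15 members summed to 5486 FPKM in 2N and 153 in 4N, against 10870 in uncultured LT-HSC. Markers of other cell types were listed at 0 in all 3 libraries for 17 of 22 lymphoid, 12 of 18 mast cell, 11 of 17 macrophage and dendritic, 9 of 17 endothelial and stromal, 7 of 20 erythroid and 2 of 23 megakaryocyte genes, with C1qa, Cd79a, Cdh5, Cpa3 and Hba-a1 among those at 0. The others were expressed: the erythroid list summed to 1530 and 1596 FPKM in 2N and 4N, against 578 in uncultured LT-HSC, and the mast cell list, mostly Srgn, to 2365 and 1739, against 3655. The megakaryocyte list summed to 764 and 985 FPKM in 2N and 4N, against 1020 in uncultured LT-HSC, and the part of such cells in the results was not tested. Total FPKM ran from 708339 to 741138 and genes at FPKM 1 or more from 10549 to 11118. Read depth is unknown.

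Of 11157 genes tested, 1037 (9.29%) differed between N cultures and uncultured LT-HSC in the same direction at both days, with 667 higher (5.98%) and 370 lower (3.32%) at a limma adjusted p below 0.05. The median difference over all genes tested was 0.21 on the log2(FPKM + 1) scale, and 8397 genes (75.3%) lay on the same side of the uncultured level at both days. Both differences subtract the same uncultured library, so a shared side is partly built in and does not measure agreement between days. The 1037 calls rest on a spread pooled over the day 2 and day 4 libraries of 3 cell types. Fewer cells of a type and less RNA per cell cannot be told apart in such libraries. The lone uncultured library is assumed to vary like them, and p-values measure only that spread. Where both N libraries of a cell type are listed at 0, they add no spread for that gene. Vcam1 was at 0 in the N libraries of all 3 cell types, so its SE of 0.704 rests on the spread of other genes. Without the 4N library 1 gene was called higher and 9 lower, without 2N 73 and 60, and with the LT-HSC libraries alone 0 and 0 (limma, Benjamini-Hochberg). With uncultured ST-HSC put in place of uncultured LT-HSC, 163 genes were called higher and 78 lower, of which 62 and 55 were among the genes called above. That fit has 2 residual degrees of freedom in place of 3, and the part of this in the count was not tested. A fit with a day term, also at 2, called 569 higher and 308 lower. With uncultured LT-HSC kept and the ST-HSC libraries left out, also at 2, 154 were called higher and 90 lower.

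**Figure D1:**
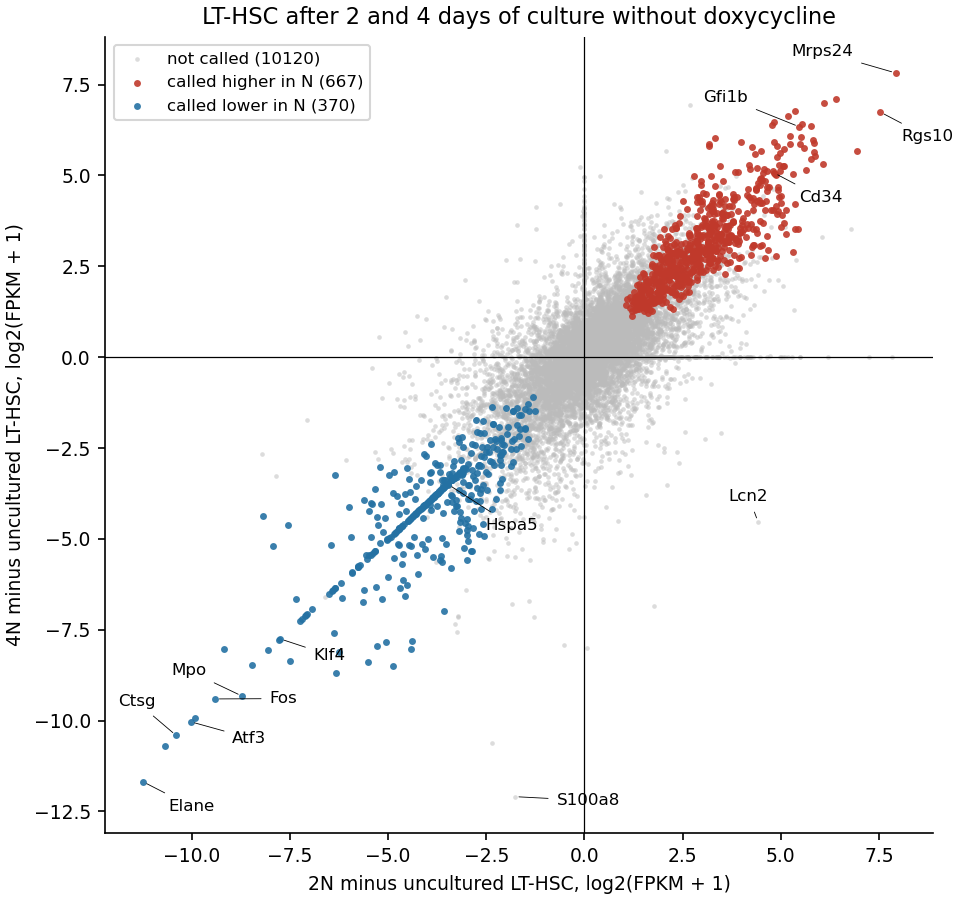
Each point is 1 of 11157 genes, with its difference from uncultured LT-HSC in the 2N library on the x axis and in the 4N library on the y axis, both as log2(FPKM + 1). The 667 genes called higher and 370 called lower lie along the diagonal, while Lcn2 and S100a8 lie far from it because their 2N and 4N levels differ. The straight run of blue points along the diagonal holds genes listed at 0 in both N libraries. Both axes subtract the same uncultured library, which by itself draws points toward the diagonal.

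The immediate early genes were the largest coherent group. Of 43 tested, 29 were lower in the N cultures and none was higher, against 3.32% of all genes called lower, and 42 of the 43 differences were below 0, against 41.7% of all genes. The 29 stood at 0 to 142 FPKM in 2N and 0 to 89.3 in 4N, against 26.6 to 1045 in uncultured LT-HSC. Their list had a median difference of -3.72, against 0.21 over all genes. That both N libraries lie on 1 side of uncultured LT-HSC is part of the call. In all 29 both also lay below uncultured ST-HSC, as in 75.9% of all genes called lower.

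Atf3, a stress-induced transcription factor of the ATF/CREB family, was listed at 0 in 2N and 4N, against 1045 FPKM in uncultured LT-HSC (adjusted p = 0.00631). Fos, which pairs with Jun proteins to form AP-1, was listed at 0 in both N libraries, against 676 FPKM in uncultured cells (adjusted p = 0.00377). Its relative Fosb was likewise at 0 in both, against 352 FPKM (adjusted p = 0.00284). The AP-1 partners followed. Jun stood at 0.36 and 0 FPKM in 2N and 4N, against 97.2 in uncultured LT-HSC, a difference of -6.40 ± 0.652 (SE; adjusted p = 0.0043). Junb kept a low level of 6.89 and 14.98 FPKM in 2N and 4N, against 488 in uncultured LT-HSC (adjusted p = 0.00659). The orphan nuclear receptors of the Nr4a family, which restrain stem cell division in mice, were all 3 lower. Nr4a1 was at 0 and 1.25 FPKM in 2N and 4N, against 581 in uncultured cells, a difference of -8.60 ± 0.779 (SE; adjusted p = 0.00315).

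The promoters of 4 of these genes are shown because these are among the immediate early genes that fell most. They are RefSeq windows of build GRCm38.p6, from 250 bases before to 50 after the gene start on the gene's strand, and capitals mark TGACGT or its reverse complement ACGTCA, the core of the cyclic-AMP response element that ATF/CREB factors bind.
Fos, chr12:85473640-85473939 (+): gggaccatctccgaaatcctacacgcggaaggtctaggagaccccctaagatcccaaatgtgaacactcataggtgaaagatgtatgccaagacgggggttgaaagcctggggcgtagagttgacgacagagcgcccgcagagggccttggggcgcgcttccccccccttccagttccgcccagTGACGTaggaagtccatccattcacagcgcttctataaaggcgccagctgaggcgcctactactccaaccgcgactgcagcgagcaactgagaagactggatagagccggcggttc
Atf3, chr1:191183284-191183583 (-): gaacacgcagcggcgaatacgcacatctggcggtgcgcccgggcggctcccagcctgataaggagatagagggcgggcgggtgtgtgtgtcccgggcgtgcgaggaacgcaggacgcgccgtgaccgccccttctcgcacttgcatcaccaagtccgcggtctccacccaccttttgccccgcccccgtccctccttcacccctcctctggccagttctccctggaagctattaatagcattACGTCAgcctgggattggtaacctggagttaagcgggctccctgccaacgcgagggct
Nr4a1, chr15:101266596-101266895 (+): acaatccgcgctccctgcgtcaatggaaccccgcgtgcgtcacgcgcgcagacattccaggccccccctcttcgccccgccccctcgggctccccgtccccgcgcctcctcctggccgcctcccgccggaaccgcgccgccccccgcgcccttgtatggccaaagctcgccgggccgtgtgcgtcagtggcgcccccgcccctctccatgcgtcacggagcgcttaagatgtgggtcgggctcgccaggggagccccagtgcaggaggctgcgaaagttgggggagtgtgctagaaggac
Fosb, chr7:19309996-19310295 (-): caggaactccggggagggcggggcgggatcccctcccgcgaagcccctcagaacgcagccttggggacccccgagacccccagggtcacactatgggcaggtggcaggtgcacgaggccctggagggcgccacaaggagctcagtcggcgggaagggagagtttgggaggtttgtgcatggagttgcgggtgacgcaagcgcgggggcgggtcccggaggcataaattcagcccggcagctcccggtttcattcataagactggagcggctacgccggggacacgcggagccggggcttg
The match lies 66 bases before the start in Fos and 8 before it in Atf3, and neither Nr4a1 nor Fosb holds these letters in the window. TGACGT, on either strand, occurred in 9 of the 36 immediate early genes with a window (25%), in 7 of the 25 of these called lower (28%), and in 7.64% of 27025 mouse genes with a window. The share was not particular to this list: the letters occurred in 8 of 40 replication genes (20%) and 10 of 48 ribosome biogenesis genes (20.8%) with a window. Neither of those lists had a member called lower. A match is a description of the sequence and not a site of binding.

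Some members of the list encode feedback regulators, which were not tested as a group. Dusp1, a phosphatase that switches off MAP kinases, stood at 8.71 and 0.39 FPKM in 2N and 4N, against 319 in uncultured LT-HSC (adjusted p = 0.0151). Zfp36, which destabilises AU-rich messages, stood at 12.8 and 4.95 FPKM, against 229 in uncultured cells (adjusted p = 0.0153). Ppp1r15a, a phosphatase subunit of the stress response, stood at 10.5 and 17.9 FPKM, against 247 in uncultured cells (adjusted p = 0.00813). The smallest falls of the list kept substantial transcript. Ier2 stood at 46.1 and 88.9 FPKM in 2N and 4N, against 410.0 in uncultured LT-HSC. The anti-apoptotic gene Mcl1 stood at 63.5 and 37.0 FPKM, against 355 in uncultured LT-HSC (adjusted p = 0.0227). Egr1 did not pass: it stood at 7.26 and 9.17 FPKM, against 130 in uncultured cells, with an adjusted p of 0.12.

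The same genes were read in ST-HSC and MP, whose libraries are separate from those of LT-HSC but share the spread of the fit. Of the 43, 34 were lower in N cultures of ST-HSC, against 4.77% of all genes there, and 3 in those of MP, where 0.117% of all genes were called lower. The list medians were -4.73 in ST-HSC and -2.34 in MP. In the difference between the LT-HSC change and the mean of the ST-HSC and MP changes 0 of 43 passed, near the 0.609% of all genes that did. The call depends on both days and on the pooled spread: without 4N 0 of 44 members passed and without 2N 10 of 44, with medians of -3.29 and -3.85. With uncultured ST-HSC in place of uncultured LT-HSC 14 of 43 were lower and the median was -4.56.

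**Figure D2:**
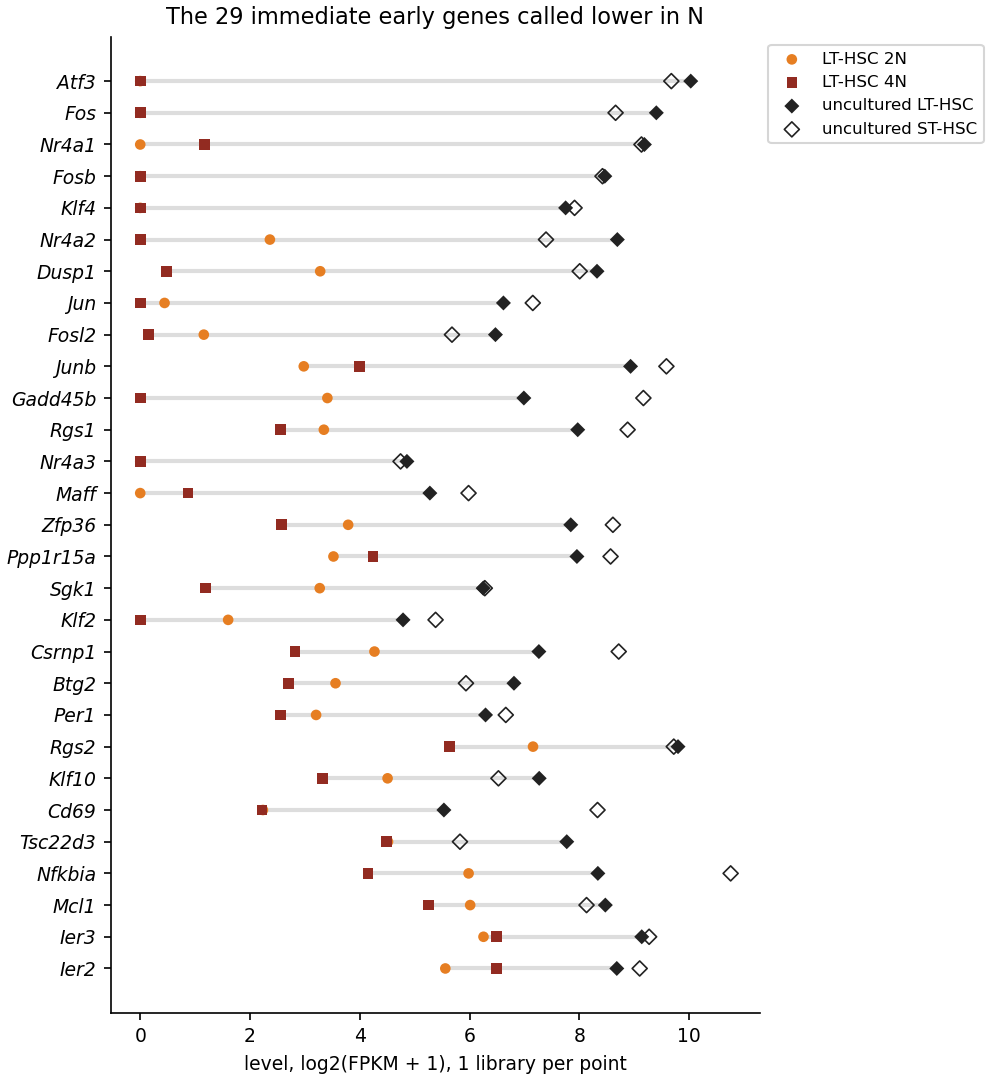
The 29 immediate early genes called lower in N, 1 row each, with their level as log2(FPKM + 1) in the libraries 2N, 4N, uncultured LT-HSC and uncultured ST-HSC. Where only 1 N symbol is seen, 2N and 4N coincide. Both N symbols lie left of both uncultured symbols in every row.

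The reprogramming factor Klf4, also an immediate early gene, was listed at 0 in 2N and 4N, against 214 FPKM in uncultured LT-HSC (adjusted p = 0.00813). Myc, the growth regulator, stood at 188 and 291 FPKM in 2N and 4N, against 120 in uncultured cells. That difference of 0.96 ± 0.656 (SE) did not pass (adjusted p = 0.394). FPKM does not separate transgene from endogenous transcripts.

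Genes of the NF-kB pathway, which carries inflammatory signals and induces its own inhibitors, were lower in 6 of 20 tested, against 3.32% of all genes, and higher in none. Nfkbia, the inhibitor IkB-alpha, stood at 62.2 and 16.7 FPKM in 2N and 4N, against 323 in uncultured LT-HSC, a difference of -3.27 ± 0.709 (SE; adjusted p = 0.0338); it is also counted among the immediate early genes. Nfkb2, the p100 subunit, stood at 2.43 and 0.35 FPKM, against 41.3 in uncultured cells (adjusted p = 0.0188). The chemokine gene Cxcl2 was listed at 0 in both N libraries, against 42.6 FPKM in uncultured LT-HSC (adjusted p = 0.00942). The adhesion molecule Icam1 stood at 18.9 and 2.65 FPKM, against 146 in uncultured LT-HSC (adjusted p = 0.0378). Rela, the p65 subunit, stood at 85.9 and 85.4 FPKM in the N libraries, against 163 in uncultured cells, and Nfkb1 at 219 and 186, against 102, neither of them past the threshold. With uncultured ST-HSC as the comparison 6 of 20 were lower. Without 2N 2 of 20 passed, and without 4N none.

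MHC class II genes, which present antigen, were lower in 3 of 10 tested, against 3.32% of all genes. The invariant chain Cd74 was listed at 0 in both N libraries, against 152 FPKM in uncultured LT-HSC (adjusted p = 0.00315). H2-Eb1 was at 0 in both, against 264 FPKM (adjusted p = 0.0135). H2-Ab1 stood at 29.5 and 14.9 FPKM, against 239 in uncultured cells (adjusted p = 0.0166). The peptide-loading factor H2-DMa stood at 183 and 141 FPKM, against 185 in uncultured cells, and did not pass. Against uncultured ST-HSC 3 of 10 were lower as well. Without 2N 1 of 10 passed, and without 4N none. MHC class I and immunoproteasome genes gave no call in 15, with a median of 0.07: B2m stood at 4095 and 2258 FPKM in 2N and 4N, against 4195 in uncultured LT-HSC.

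Primary granule genes gave the largest differences. Of 10 tested, 7 were lower in the N cultures, against 3.32% of all genes, and none was higher, with a list median of -6.80. Elane, neutrophil elastase, stood at 4.60 and 3.12 FPKM in 2N and 4N, against 13554 in uncultured LT-HSC, a difference of -11.46 ± 0.395 (SE; adjusted p = 7.75e-05). Ctsg, cathepsin G, stood at 1.496 and 1.494 FPKM, against 3379 in uncultured cells (adjusted p = 7.75e-05). Mpo, myeloperoxidase, stood at 16.8 and 10.7 FPKM, against 7525 in uncultured LT-HSC, a difference of -9.02 ± 0.458 (SE; adjusted p = 0.000261). Ms4a3, a membrane protein of granulocyte-monocyte progenitors, was listed at 0 in both N libraries, against 974 FPKM (adjusted p = 0.000117). The proteoglycan Srgn, which packs granule proteases, stood at 2329 and 1684 FPKM, against 3604 in uncultured cells, and did not pass. Ctsc, the protease that activates the others, stood at 75.2 and 61.6 FPKM, against 35.7 in uncultured LT-HSC, and did not pass.

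Other myeloid genes moved with them. Of 29 receptors and factors tested, 12 were lower and 1 higher, against 3.32% and 5.98% of all genes. Ncf4, a subunit of the phagocyte oxidase, stood at 45.4 and 21.8 FPKM in 2N and 4N, against 738 in uncultured LT-HSC (adjusted p = 0.00813). Csf2ra, the GM-CSF receptor alpha chain, stood at 6.67 and 8.01 FPKM, against 93.3 in uncultured cells (adjusted p = 0.00844), while the shared beta chain Csf2rb was the member that rose, at 14.8 and 11.3 FPKM, against 0.34 (adjusted p = 0.0151). Cebpe, a factor of late granulocyte maturation, stood at 9.78 and 0 FPKM, against 225 in uncultured cells (adjusted p = 0.0434). Fcnb, a ficolin of granulocyte precursors, was listed at 0 in both N libraries, against 1652 FPKM (adjusted p = 0.0053). Anxa3 stood at 0.79 and 0 FPKM, against 325 in uncultured cells (adjusted p = 0.00107), and the adhesion molecule Vcam1 at 0 in both, against 219 FPKM (adjusted p = 0.00315). Of the 17 macrophage and dendritic markers 11 were at 0 in all 3 libraries, and 3 of the 6 tested were lower, against 3.32% of all genes. The list summed to 14.1 and 8.78 FPKM in 2N and 4N, against 401 in uncultured LT-HSC.

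The sizes of these falls depend on the uncultured library. With uncultured ST-HSC in place of uncultured LT-HSC the primary granule median was -2.04 and that of the receptors and factors -0.05. In that fit, which has 2 residual degrees of freedom in place of 3, 4 of 10 and 0 of 29 were lower. With uncultured LT-HSC kept and the ST-HSC libraries left out, also at 2, the counts were 5 of 10 and 6 of 29, with medians of -6.80 and -1.52. A fit of 1 change shared by the 3 cell types called 1 primary granule gene higher and none lower, with a median of -2.02, and 1 receptor or factor each way, with a median of 0.18. In the fit with uncultured ST-HSC in place, Elane differed by -3.25 (adjusted p = 0.0423) and Mpo by -5.73 (adjusted p = 0.0375). Fcgr3, an Fc receptor, changed sign there to 1.31 (adjusted p = 0.222). Within ST-HSC, 4 of the 10 primary granule genes were higher in N cultures than in uncultured cells, against 8.38% of all genes there, and none was lower. Of the 370 genes called lower in LT-HSC, 82 (22.2%) stood at least 4 times higher in uncultured MP than in uncultured ST-HSC, against 10.6% of all genes tested. Without 2N, 5 of 10 primary granule genes were lower, and without 4N 6 of 10, while of the 29 receptors and factors 2 and 0 were lower.

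**Figure D3:**
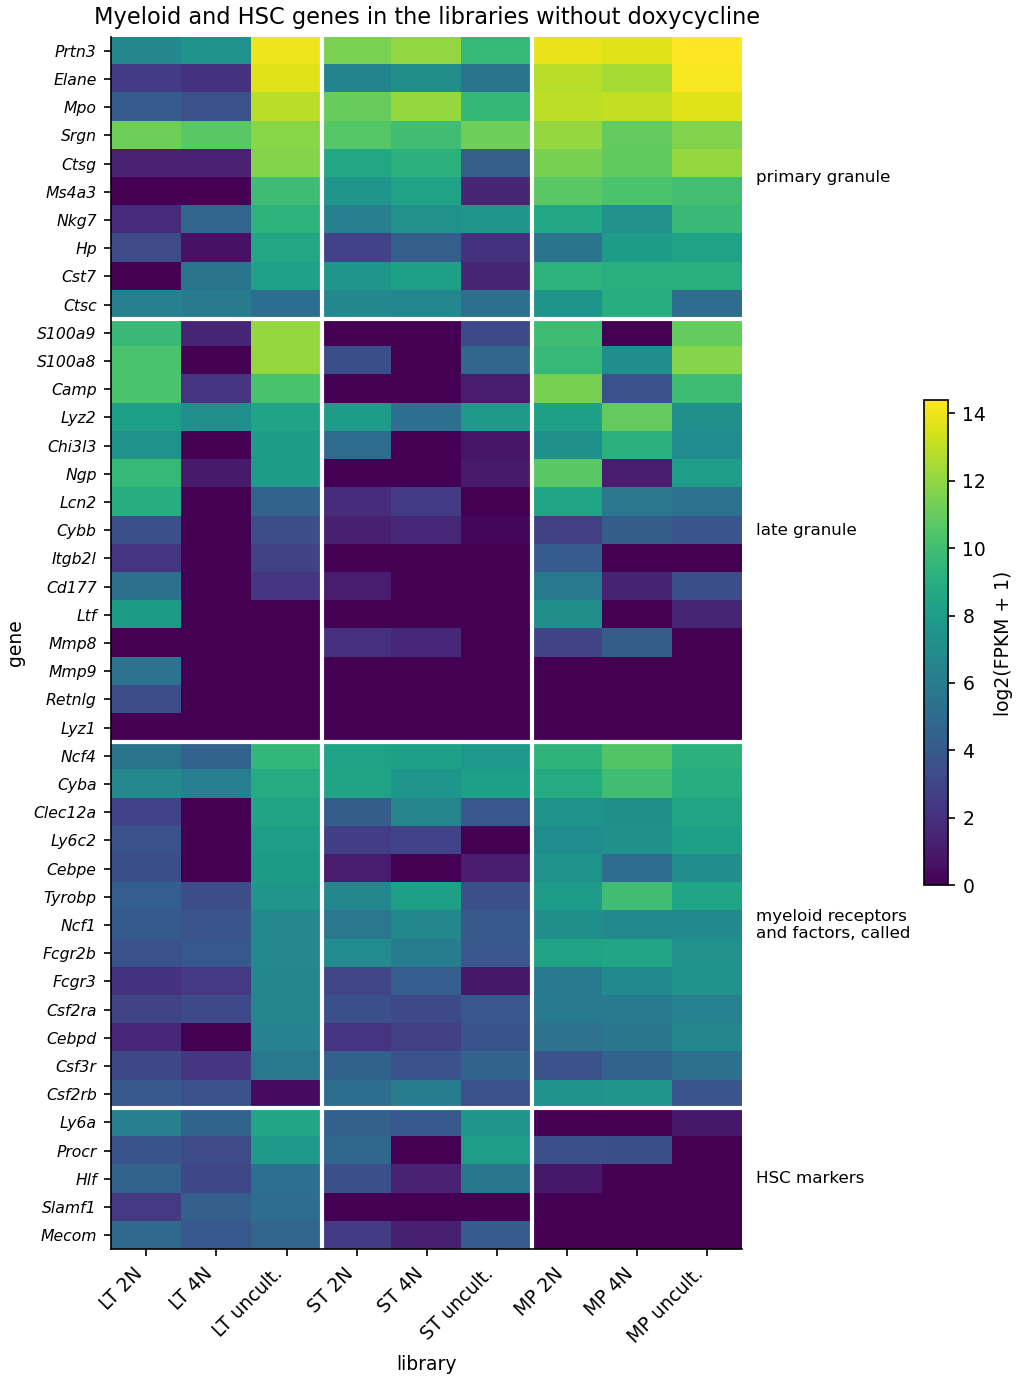
Level as log2(FPKM + 1) of primary granule, late granule, called myeloid and stem cell genes (rows) in the 9 libraries without doxycycline (columns). Elane, Mpo, Ctsg and Ms4a3 are dark in LT-HSC 2N and 4N and bright in uncultured LT-HSC and all MP libraries, whereas Srgn and Ctsc differ little, and S100a8, Camp and Ngp are bright in LT-HSC 2N and uncultured LT-HSC and dark in LT-HSC 4N.

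Genes of the G1/S transition and DNA replication formed the main group that rose. Of 50 tested, 13 were higher in the N cultures and none lower, against 5.98% of all genes, and 49 of the 50 differences were above 0, against 55.9% of all genes. The list median was 1.5. The 13 stood at 17.9 to 290 FPKM in 2N and 39.1 to 476 in 4N, against 0.68 to 92.4 in uncultured LT-HSC, and in all 13 both N libraries also lay above uncultured ST-HSC, as in 82.5% of all genes called higher. Gins1, a subunit of the replicative helicase, stood at 141 and 213 FPKM in 2N and 4N, against 4.96 in uncultured cells, a difference of 4.87 ± 0.463 (SE; adjusted p = 0.00364). Ccne1, cyclin E1, the driver of S-phase entry, stood at 18.3 and 47.5 FPKM, against 0.68 in uncultured LT-HSC (adjusted p = 0.0187). The helicase subunits Mcm4 and Mcm6 rose by less. Mcm4 stood at 153 and 182 FPKM, against 43.0 in uncultured cells, a difference of 1.93 ± 0.340 (SE; adjusted p = 0.0193). Mcm6 stood at 290 and 415 FPKM, against 92.4 (adjusted p = 0.0208). The primase subunit Prim1 stood at 129 and 190 FPKM, against 27.1 in uncultured LT-HSC (adjusted p = 0.0171).

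In the promoters of the replication list, either of the E2F letters TTTGGCGC or TTCCCGCC, on either strand, occurred in 14 of the 40 members with a window (35%), against 2.75% of all windows. Among the 9 called members with a window it occurred in 2 (22.2%). In ST-HSC 13 of the 50 were higher, against 8.38% of all genes there, with a list median of 1.25. In MP, where 0.0717% of all genes were called higher, none was called and the list median was -0.10. None of the 50 passed in the difference between LT-HSC and the mean of ST-HSC and MP, near the 0.609% of all genes that did. Without 2N 1 member was called higher and without 4N none, with medians of 1.68 and 1.23, and against uncultured ST-HSC 2 of 50 were higher, with a median of 1.35.

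Later cell-cycle genes had a lower list median, 0.68 against 1.5 for the replication list, a difference that was not tested. Of 53 G2/M genes 4 were higher (7.55%, near the 5.98% of all genes) and none lower. Mad2l1, a spindle checkpoint protein, stood at 108 and 142 FPKM in 2N and 4N, against 18.8 in uncultured LT-HSC (adjusted p = 0.0121). Ccnb2, cyclin B2, stood at 344 and 340 FPKM, against 76.7 in uncultured cells (adjusted p = 0.0166), and Ccna2, cyclin A2, at 167 and 134, against 45.3 (adjusted p = 0.0394). Among cyclin-dependent kinase inhibitors Cdkn1a (p21), which arrests cells in G1 and is also a p53 target, stood at 27.3 and 15.5 FPKM, against 603 in uncultured LT-HSC, a difference of -4.80 ± 0.794 (SE; adjusted p = 0.0168). Cdkn1c (p57), linked to stem cell quiescence, stood at 5.38 and 3.38 FPKM, against 5.45 in uncultured cells, and Cdk6 at 17.4 and 28.0, against 10.2, neither past the threshold. Of 27 p53 target genes 3 were lower, namely Cdkn1a, Btg2 (also counted as immediate early) and Plk2, against 3.32% of all genes, and none was higher. Mdm2, the target that degrades p53, stood at 19.4 and 22.2 FPKM, against 55.8 in uncultured cells, and did not pass.

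Ribosome biogenesis genes were higher in 7 of 55, against 5.98% of all genes, and lower in none, with a median of 0.77. Rrn3, which brings RNA polymerase I to ribosomal DNA, stood at 43.6 and 50.9 FPKM in 2N and 4N, against 5.05 in uncultured LT-HSC, a difference of 2.99 ± 0.465 (SE; adjusted p = 0.0148). Bop1, a factor of large-subunit assembly, stood at 38.9 and 48.1 FPKM, against 8.46 in uncultured cells (adjusted p = 0.0191). Against uncultured ST-HSC none of the 55 was called, with a median of 0.45 (Bop1 at an adjusted p of 0.59). With uncultured LT-HSC kept and the ST-HSC libraries left out, at the same 2 residual degrees of freedom, none was called either, with a median of 0.77. The fit with a day term, also at 2, called 6 of the 55 higher, and the cause of the lost calls was not tested. Translation factors and tRNA synthetases gave no call in 31, with a median of 0.59.

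Oxidative phosphorylation genes were higher in 9 of 62, against 5.98% of all genes, and lower in none, and 57 of the 62 differences were above 0, against 55.9% of all genes. Ndufb9, a subunit of complex I, stood at 768 and 791 FPKM in 2N and 4N, against 200.0 in uncultured LT-HSC, a difference of 1.96 ± 0.298 (SE; adjusted p = 0.0138). Cox5a, of cytochrome c oxidase, stood at 966 and 907 FPKM, against 415 in uncultured cells (adjusted p = 0.045), and it also passed against uncultured ST-HSC (2.01, adjusted p = 0.0485). In ST-HSC 18 of 62 were higher in N cultures, against 8.38% of all genes there. Left without 2N or without 4N, the fit called none of the ribosome biogenesis, oxidative phosphorylation or chromatin genes, with oxidative phosphorylation medians of 1.01 and 0.77. Glycolytic enzymes gave 1 call each way in 23, near the 5.98% of all genes called higher and 3.32% called lower. The mitochondrial gatekeeper Pdk1 stood at 63.8 and 49.1 FPKM, against 11.3 (adjusted p = 0.0257), and the myeloid hexokinase Hk3 at 4.67 and 0.63 FPKM, against 70.8 (adjusted p = 0.0163). Ldha stood at 315 and 362 FPKM, against 349 in uncultured cells.

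Stress and metabolic genes split. Hspa5 (BiP), the main chaperone of the endoplasmic reticulum, fell to 94.7 and 92.1 FPKM in 2N and 4N, against 1056 in uncultured LT-HSC, a difference of -3.49 ± 0.287 (SE; adjusted p = 0.00302). Hsp90b1 stood at 60.6 and 84.9 FPKM, against 308 (adjusted p = 0.0221), and Herpud1 at 68.8 and 103, against 276 (adjusted p = 0.0471). These were the 3 called of 25 chaperone genes, against 3.32% of all genes called lower. Ddit3 (CHOP), a stress-induced factor, stood at 30.8 and 4.95 FPKM, against 332 in uncultured LT-HSC (adjusted p = 0.043), while the serine-pathway enzymes Psph, Mthfd1l and Shmt2 rose. Psph stood at 169 and 198 FPKM, against 45.1 in uncultured cells (adjusted p = 0.0221). Nqo1, a quinone reductase induced by NRF2, stood at 118 and 92.6 FPKM, against 1.02 in uncultured LT-HSC, a difference of 5.71 ± 0.831 (SE; adjusted p = 0.0122). Catalase (Cat) was the other of 2 antioxidant genes called in 19, both higher, against 5.98% of all genes. Haem oxygenase, Hmox1, was listed at 0 in all 3 libraries.

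**Figure D4:**
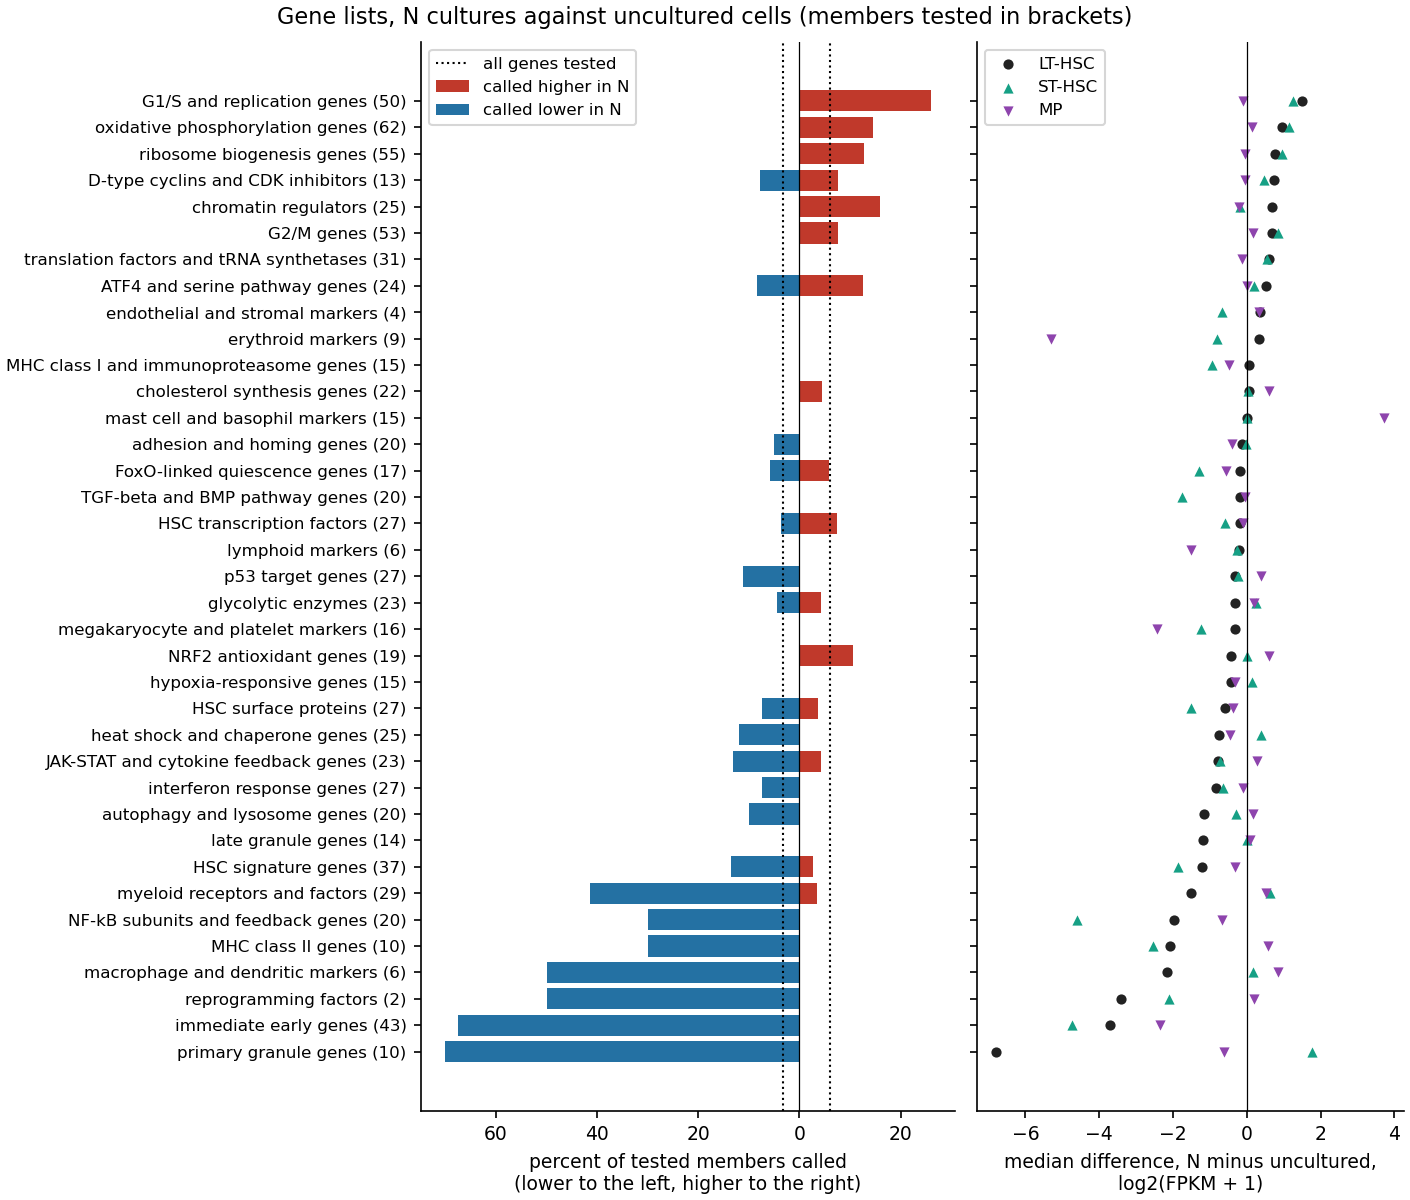
Left, the percent of tested members called lower (to the left) or higher (to the right) in the N cultures for the 37 gene lists, with dotted lines at the 3.32% and 5.98% of all genes. Right, the list medians of the N minus uncultured difference in LT-HSC, ST-HSC and MP. Primary granule and immediate early genes stand lowest in LT-HSC, and replication genes stand highest.

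Of 27 stem cell surface genes 1 was higher and 2 lower, and of 27 stem cell transcription factors 2 were higher and 1 lower, shares near the 5.98% and 3.32% of all genes. Of 37 stem cell signature genes 1 was higher and 5 lower, with a median of -1.20 and 30 of the 37 differences below 0, against 41.7% of all genes. Cd34, low on adult mouse LT-HSC, stood at 487 and 575 FPKM in 2N and 4N, against 16.1 in uncultured LT-HSC, a difference of 4.95 ± 0.625 (SE; adjusted p = 0.00813). Uncultured ST-HSC held Cd34 at 421 FPKM, and against them the difference was 0.33 (adjusted p = 0.81). Ly6a (Sca-1) stood at 76.8 and 23.3 FPKM, against 367 in uncultured LT-HSC (adjusted p = 0.0447). Procr stood at 12.4 and 9.22 FPKM, against 215 in uncultured LT-HSC, which did not pass (-4.21 ± 1.622, SE; adjusted p = 0.143). Against uncultured ST-HSC, at 267 FPKM, Procr did pass (adjusted p = 0.0429). Slamf1 stood at 4.13 and 19.1 FPKM, against 34.6 in uncultured LT-HSC, and did not pass. Kit stood at 26.9 and 14.6 FPKM, against 30.7 in uncultured cells, and Mecom, a factor that maintains stem cells, at 28.8 and 14.7, against 24.7.

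The zinc-finger repressors Gfi1 and Gfi1b moved in opposite directions. Gfi1, which acts in stem cells and granulocytes, was listed at 0 in both N libraries, against 59.3 FPKM in uncultured LT-HSC (adjusted p = 0.00315). Gfi1b, which acts in stem cells, erythroid cells and megakaryocytes, stood at 73.8 and 135 FPKM in 2N and 4N, against 0.69 in uncultured LT-HSC, a difference of 5.90 ± 0.580 (SE; adjusted p = 0.00394). Against uncultured ST-HSC, at 25.2 FPKM, Gfi1b differed by 1.94 and did not pass (adjusted p = 0.132). Nfe2, a factor of erythroid cells and megakaryocytes, stood at 461 and 658 FPKM, against 171 (adjusted p = 0.0374). Among signature genes Gstm1, a glutathione transferase, stood at 5.50 and 5.73 FPKM, against 293 in uncultured LT-HSC, a difference of -5.47 ± 0.518 (SE; adjusted p = 0.0036). Ifitm1, an interferon-induced membrane protein, stood at 77.3 and 80.1 FPKM, against 665 in uncultured cells (adjusted p = 0.0121). Apoe, the lipid carrier, stood at 7.17 and 1.45 FPKM, against 153 in uncultured LT-HSC (adjusted p = 0.0164). Gstm1 and Ifitm1 passed against uncultured ST-HSC as well, at adjusted p of 0.0448 and 0.0423.

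Among 25 chromatin regulators 4 were higher, against 5.98% of all genes, and none was lower. The maintenance methyltransferase Dnmt1 stood at 101 and 98.5 FPKM in 2N and 4N, against 28.9 in uncultured LT-HSC (adjusted p = 0.0273); it is also counted in the replication list. The de novo methyltransferase Dnmt3b stood at 30.3 and 54.7 FPKM, against 5.22 in uncultured cells (adjusted p = 0.0284). Hells, a remodeller needed for DNA methylation, stood at 34.4 and 24.9 FPKM, against 1.60 in uncultured cells (adjusted p = 0.0166), and Eed, a Polycomb subunit, at 69.0 and 55.7, against 10.97 (adjusted p = 0.031). None of the 25 was called against uncultured ST-HSC, with a list median of 0.06. With uncultured LT-HSC kept and the ST-HSC libraries left out, at the same 2 residual degrees of freedom, none was called either, with a median of 0.69.

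By size alone, 686 genes (6.15%) were at least 4-fold higher and 481 (4.31%) at least 4-fold lower at both days with 10 FPKM or more in 1 library, and the largest rises are described here. Mrps24, a mitochondrial ribosomal protein, stood at 407 and 378 FPKM in 2N and 4N, against 0.68 in uncultured LT-HSC, a difference of 7.87 ± 0.324 (SE; adjusted p = 9.45e-05). Rgs10, a brake on G-protein signalling, stood at 337 and 193 FPKM, against 0.81 in uncultured cells, a difference of 7.14 ± 0.704 (SE; adjusted p = 0.00394). Ndufaf2, a complex I assembly factor, stood at 83.7 and 136 FPKM, and Tfb1m, a mitochondrial rRNA methyltransferase, at 53.4 and 80.9, both listed at 0 in uncultured LT-HSC (adjusted p = 0.00297 and 0.0187). Mms22l, which acts at stalled replication forks, stood at 152 and 62.4 FPKM, against 0.24 in uncultured cells (adjusted p = 0.00368). Dscc1, a loader of sister chromatid cohesion, stood at 47.6 and 52.6 FPKM and was listed at 0 in uncultured cells (adjusted p = 0.00315). Uncultured ST-HSC held Mrps24 at 83.1 FPKM, Rgs10 at 46.7, Ndufaf2 at 14.1, Tfb1m at 13.7, Mms22l at 32.9 and Dscc1 at 23.6. Against them the differences were 2.22, 2.42, 2.84, 2.18, 1.54 and 1.05 in that order. Of these genes only Mrps24 passed there (limma adjusted p = 0.046), in a fit with 2 residual degrees of freedom in place of 3. The other rises named were BC024814, Alkbh7, Tbc1d7, 2310030N02Rik, Zswim7, 1700011J10Rik and Wdr55, at 44.8 to 126 FPKM in the N libraries. All but Wdr55 (0.05 FPKM) were listed at 0 in uncultured LT-HSC. Of these, Alkbh7 and Tbc1d7 also passed against uncultured ST-HSC in that fit (limma adjusted p = 0.0375 for each). Tbc1d7 differed by 4.9, and Alkbh7 was listed at 0 in uncultured ST-HSC. BC024814 (-0.01), 2310030N02Rik (2.56), Zswim7 (0.9), 1700011J10Rik (0.89) and Wdr55 (4.88) did not pass there. Among the largest rises described above, Nqo1 passed there (limma adjusted p = 0.0452) and Gfi1b did not. Among genes called higher, 126 of 667 (18.9%) were at 0 in uncultured LT-HSC, against 10.8% of all genes tested. Of the 126, 69 stood at 10 FPKM or more in uncultured ST-HSC or MP. The same share among all genes at 0 in uncultured LT-HSC is not given here, so the 69 is a description only. Among genes called lower, 123 of 370 (33.2%) were at 0 in both N libraries, against 4.77% of all genes. A call of higher selects genes low in uncultured cells, and a call of lower those low in N cultures. Both shares are therefore partly built in.

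The remaining lists gave few calls, to be read beside the 5.98% of all genes called higher and 3.32% called lower. Of 23 JAK-STAT and cytokine feedback genes 3 were lower and 1 higher: Socs3, the inhibitor of cytokine receptor signalling, stood at 3.02 and 3.95 FPKM in 2N and 4N, against 139 in uncultured LT-HSC (adjusted p = 0.0169), and the survival gene Bcl2l1 rose to 32.4 and 53.8 FPKM, against 8.63 (adjusted p = 0.0489). Of 20 autophagy and lysosome genes 2 were lower, with Ctsl, cathepsin L, at 32.5 and 26.1 FPKM, against 213 in uncultured cells (adjusted p = 0.00818). In that list 18 of the 20 differences were below 0, against 41.7% of all genes. S1pr1, the receptor that guides exit from tissue, was the 1 lower of 20 adhesion genes, at 0 and 1.43 FPKM, against 86.5 in uncultured LT-HSC (adjusted p = 0.0139). Of 27 interferon response genes 2 were lower, of 17 FoxO-linked genes 1 was higher (Cat) and 1 lower (Klf2), and of 22 cholesterol synthesis genes 1 was higher (Sc4mol). By limma no gene was called among 20 TGF-beta and BMP, 15 hypoxia-responsive, 14 late granule, 15 mast cell, 9 erythroid, 6 lymphoid and 4 endothelial and stromal genes tested, where over all genes 3116 had an unadjusted p below 0.05.

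Whether the LT-HSC change differed from that of the other blood cells was tested as the LT-HSC difference minus the mean of the ST-HSC and MP differences. This passed for 68 genes (0.609%), 35 above (0.314%) and 33 below (0.296%), at an adjusted p below 0.05. The contrast itself favours genes low in uncultured LT-HSC for those above and high for those below. As a description, uncultured LT-HSC lay below uncultured ST-HSC in all 35 genes above (48.5% of all genes) and under 1 FPKM in 27 of them (16.2% of all genes). Of the 33 below, 32 stood higher in uncultured LT-HSC than in uncultured ST-HSC (46.4% of all genes), and 9 belong to the granule or myeloid receptor lists, which hold 0.475% of all genes tested. The 5 lowest were Ms4a3, Ctsg, Elane, Anxa3 and Mpo. Ms4a3 rose in ST-HSC N cultures, at 183 and 313 FPKM in 2N and 4N, against 1.77 in uncultured ST-HSC (adjusted p = 0.00269), opposite to its fall in LT-HSC. The 5 highest were Gfi1b, Hemgn, BC024814, 1700011J10Rik and Rgs10. Hemgn, a nuclear protein of erythroid and stem cells, stood at 27.5 and 59.0 FPKM in LT-HSC 2N and 4N and at 0 in uncultured LT-HSC, against 12.5, 8.87 and 15.7 FPKM in the 2N, 4N and uncultured libraries of ST-HSC. The difference was called in 1 gene above and 8 below without 2N, and in 0 and 6 without 4N.

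Calls were partly shared with ST-HSC. Of the 667 genes called higher in LT-HSC 227 were also called higher in ST-HSC (34.0% of the LT-HSC and 24.3% of the 935 ST-HSC calls), where 8.38% of all genes were. Of the 370 called lower 144 were lower in ST-HSC (38.9% of the LT-HSC and 27.1% of the 532 ST-HSC calls), where 4.77% of all genes were. MP gave 8 genes higher and 13 lower, of which 2 (25%) and 5 (38.5%) were shared with LT-HSC. Of all genes, 5.98% were called higher and 3.32% lower in LT-HSC.

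**Figure D5:**
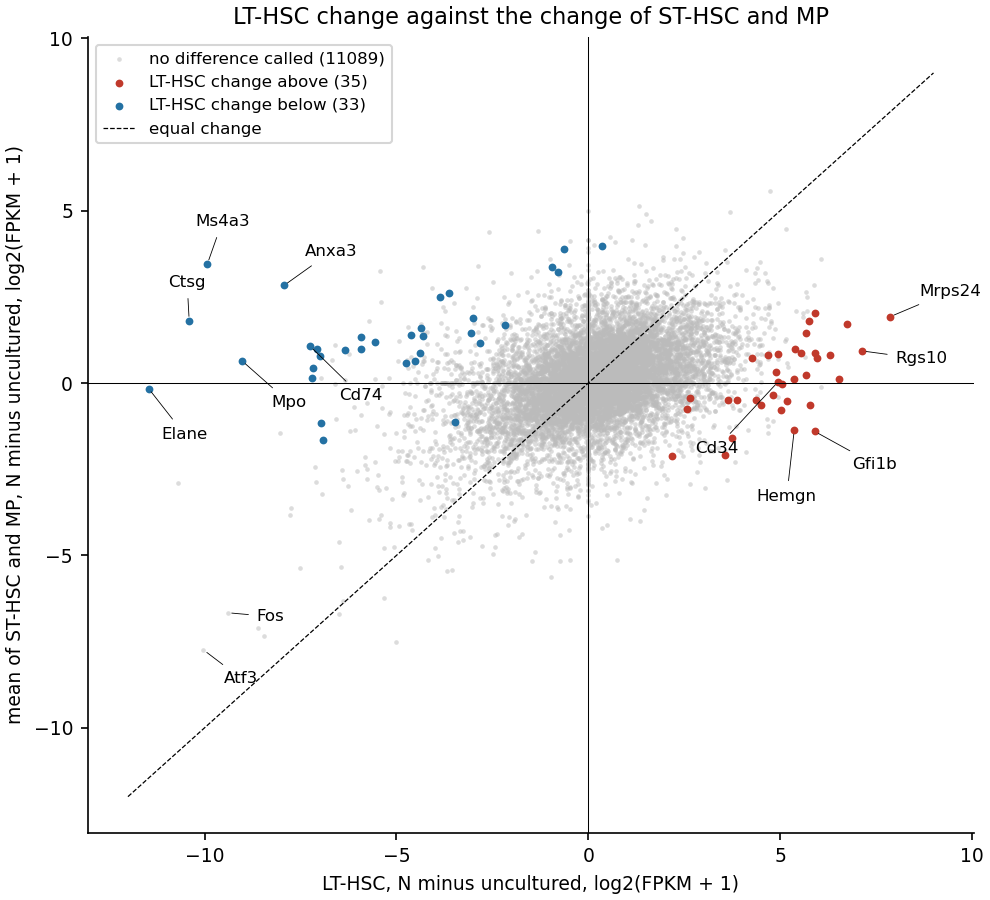
Each point is 1 gene, with the LT-HSC difference between N cultures and uncultured cells on the x axis and the mean of the ST-HSC and MP differences on the y axis, as log2(FPKM + 1). The 33 genes whose LT-HSC change lay below (blue) include Ms4a3, Ctsg, Elane and Mpo, and the 35 above (red) include Gfi1b, Rgs10 and Mrps24. Fos and Atf3 lie off the line of equal change, with differences of -2.74 and -2.29, and neither passed (limma adjusted p = 0.276 and 0.457).

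Day 4 was set against day 2 by size alone, since each is 1 library. At least 4-fold higher in 4N were 236 genes (2.12%), and at least 4-fold lower 317 (2.84%), with 10 FPKM or more in 1 of both libraries. The 5 largest falls were late granule genes of mature neutrophils. S100a8 was listed at 0 in 4N, against 1275 FPKM in 2N, and Lcn2 at 0 against 494. Ngp stood at 1.05 FPKM in 4N, against 799 in 2N, and Camp at 3.71, against 1266. MP cultures also held these genes at day 2 and less at day 4, with Ngp at 1.20 FPKM in MP 4N and 1676 in MP 2N. Camp stood at 11.1 FPKM in MP 4N and 2780 in MP 2N. S100a8 and Lcn2 fell less there, to 131 and 52.9 FPKM in MP 4N, from 805 and 350 in MP 2N. The 5 largest rises were 4933439C10Rik, Cst7, Nhej1, Gata1 and Gtpbp6. Gata1, the erythroid and megakaryocyte regulator, stood at 40.6 FPKM in 4N and was listed at 0 in 2N, with 1.37 FPKM in uncultured LT-HSC. The platelet chemokines Pf4 and Ppbp stood at 121 and 49.9 FPKM in 4N, against 5.43 and 3.22 in 2N, and were listed at 0 in uncultured cells. Both were picked after their values were seen, and their list did not rise as a whole. Of the 16 megakaryocyte markers tested, 7 differences lay above 0 and 9 below, with a list median of 0 at day 4. The list summed to 985 FPKM in 4N, against 1020 in uncultured LT-HSC. None of the 16 was called, and with 25 cells a library a few cells of another type can set such levels, which was not tested.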

How the data were processed

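Gene expression was measured by RNA sequencing. The authors deposited FPKM, 1 value per gene and library, made with TopHat and Cufflinks on mm9 per the submitters' processing notes, with versions and annotation not given in the sources used here. FPKM is scaled to length and total, so depth is unknown. Low values showed no common step (at most 2.0% of genes low in a pair of libraries fell in a window of 1% width), so reads could not be recovered. FPKM of genes with many near copies, such as Gapdh (0 and 4.58 FPKM in 2N and 4N, 6.93 in uncultured LT-HSC), may be split by the counting. A listed 0 may also be an estimate that failed. The 36818 entries carried 36655 symbols, of which the 158 on several entries were summed. By GENCODE M21 classes 4085 small RNAs and 5089 pseudogenes were set aside. Symbols with no class, 3117 in all, were kept unless named like either.

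Values were log2(FPKM + 1). Genes with a mean of at least 1 FPKM over the 9 libraries without doxycycline were tested in limma 3.58.1 (R 4.3.3; trend and robust empirical Bayes), with 6 means for cell type and state, 3 residual degrees of freedom, Benjamini-Hochberg adjustment over 11157 genes and a two-sided threshold of 0.05. A call also needs the same sign at both days. The difference between cell types was a contrast of the same fit. Day 4 against day 2 had no test. No fold is given against a group wholly at 0, since its fitted size follows from the added 1. Named genes were the 15 largest rises and falls of at least 4-fold at both days with 10 FPKM in 1 library, ranked by the smaller day, 5 each way for the cell-type and day differences, and list members chosen by smallest p, with others (Egr1, Rela, Nfkb1, Srgn, Ctsc, Ldha, Pf4, Ppbp and similar) chosen after their values were seen. The members and the 37 lists (983 entries, 3 not found) were chosen with earlier results of these data known. The fits were tested on simulated data. Promoter windows came from RefSeq, of which 36 of 46 immediate early genes had one. Python 3.11.15, pandas 2.3.3, numpy 2.4.6 and matplotlib 3.10.9 were used for tables and figures.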

Additional observations from a re-analysis of the deposited data

Results flagged for a closer look

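The change from uncultured cells to N cultures differed between LT-HSC and the mean of ST-HSC and MP, by limma's test of that difference, for 28 of the genes named or described. Over all 11157 genes tested 68 passed (0.609%). The named genes include 5 each way picked for passing this test, and others picked for their LT-HSC change. The count of 28 is therefore partly built in. Values in brackets are the LT-HSC difference minus the mean of the other differences on the log2(FPKM + 1) scale, and where a group is listed at 0 they depend on the added 1. Below lay Ms4a3 (-13.39), Ctsg (-12.22), Elane (-11.31), Anxa3 (-10.77), Mpo (-9.67), Cd74 (-8.33), Prtn3 (-7.78), Cldn15 (-7.35), Gfi1 (-6.90), Fcgr3 (-5.27), Ncf4 (-5.15), Fcgr2b (-4.87), Ifitm1 (-4.52), Ncf1 (-3.99) and Hspa5 (-2.36). Above lay Gfi1b (7.31), Hemgn (6.73), BC024814 (6.42), 1700011J10Rik (6.41), Rgs10 (6.21), Mrps24 (5.94), Mms22l (5.50), Dscc1 (5.44), Zswim7 (5.24), Ndufaf2 (5.04), Cd34 (4.91), 2310030N02Rik (3.95) and Tbc1d7 (3.86). Leaving out 2N or 4N took the count of all such genes, above and below, to 1 and 8 or to 0 and 6.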

How the results depend on the processing

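Against 667 genes called higher and 370 lower, and 35 above and 33 below in the difference between cell types, the alternatives gave the following counts, and the cause of each shift was not tested. A pseudocount of 0.1 gave 820 and 225, with 117 above and 63 below; one of 5 gave 495 and 503, with 9 above, and 95 and 110 genes for day 4 against day 2. No filter on low values gave 507 above and 387 below, a mean of at least 5 FPKM 53 above, quantile normalization 22 above, small RNAs and pseudogenes kept 23 above, and no trend or robust option 371 higher and 11 above. Quantile normalization and equal medians moved the median of all genes to 0.05 and 0.01. Leaving out 1 LT-HSC N library gave 1 to 73 higher and 9 to 60 lower, with 0 to 1 above and 6 to 8 below. Without ST-HSC there were 154 higher and 90 lower (1 above, 5 below), without MP 119 and 65 (0 above, 6 below), and with LT-HSC libraries alone, at 1 residual degree of freedom, 0 and 0. With uncultured ST-HSC in place, an alternative chosen after seeing the data, there were 163 and 78.

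Replicate numbers of the N libraries stand for the day, so the paired fit is a day term. This replicate block gave 569 higher and 308 lower, of which 529 and 283 were shared with the fit without it, and 4 above and 9 below.

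Some values changed sign, and not all of them are listed here. The median of late granule genes was 0.06 without 4N and 2.54 with uncultured ST-HSC in place, against -1.18. That of p53 target genes was 0.18 with no filter on low values and 0.22 at a mean of at least 5 FPKM, against -0.31. The median of endothelial and stromal markers was -0.07 at a pseudocount of 5. That of cholesterol synthesis genes was -0.08 under quantile normalization and -0.17 under equal medians, and that of erythroid markers -0.30 under quantile normalization. Mecom gave 0.21 without 4N and -0.71 without 2N. With cell type as a block Emr1 gave 0.80, Fcgr2b 0.25 and Tyrobp 0.22. With uncultured ST-HSC in place BC024814 gave -0.01, Cebpe 0.53, Emr1 0.00, Fcgr3 1.31, Kif23 -1.48, Ly6c2 1.80, Mecom 0.30, Rbl1 -0.04, Slamf1 3.34 and Tyrobp 0.34. Over all alternatives, 849 single-gene values lost their call in the same direction, 2 gained one and 1357 did neither.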
